A study of Drosophila melanogaster with 12 samples.

Results

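The levels of 10 genes that carry, anchor or translationally control mRNA in the Drosophila melanogaster oocyte were followed across 12 ovary RNA-seq libraries. The genes were taken by name, with no threshold on their values: bcd, grk, orb, stau, BicD, egl, exu, swa, sqd and cup. They are 10 of the 15446 genes in the count table, and all 10 were among the 8638 genes with enough counts to be tested. The libraries form 6 groups of 2, all from ovary, from yeast-fed flies kept at 25 °C and labelled as aged 3 to 5 with no unit. The groups were a germline-specific nxf2 knockdown and the wild-type stock attp2, an nxf2 -/- mutant made by CRISPR/Cas9 and the wild-type stock W1118, and nxf2 -/- and nxf2 +/- flies that both carry panx FL10B, which the labels call tethered. nxf2 encodes a nuclear RNA export factor family protein that acts with Panx and Piwi in transposon silencing. The driver and hairpin of the knockdown, the number of mutant lines, and what FL10B stands for are not stated in the sources used here, and the pairing of attp2 with the knockdown and of W1118 with the mutant was read from the group names.

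In the egg chamber, nurse cells make most of the mRNA and protein of the oocyte and pass them to it through ring canals. Dynein, loaded through the adaptors Egalitarian and Bicaudal-D, carries selected mRNAs along microtubules into the oocyte, where RNA-binding proteins place them at the anterior, the posterior or the dorsal corner and keep them silent until they are in place. The anterior determinant encoded by bcd and the epidermal growth factor receptor ligand encoded by grk are classic cargoes. The values here are levels of the mRNAs that encode these proteins in whole ovaries, so neither the position nor the translation of any mRNA was measured. In bulk ovary RNA, fewer cells of a type and less RNA per cell cannot be told apart.

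Levels are given as CPM, the count of a gene relative to the library total, scaled by the trimmed mean of M-values (TMM). Total counts ranged from 3811630 to 11260925 per library. Replicates were not copies of 1 library: the chi-square of their counts divided by its degrees of freedom lay between 1.59 (W1118) and 35.7 (attp2). The labels do not say that they came from separate animals, so the p-values reflect the spread of these libraries alone, which may be technical. Over the 10 genes the higher library of a pair exceeded the lower by a median of 1.03-fold in W1118 and in both Panx FL10B groups, and by 1.08-fold to 1.10-fold in the other 3 groups. The largest gap was 1.35-fold, for stau in attp2. With 2 libraries per group, a lack of overlap between groups is weak evidence of a difference, and its share over all genes was not computed. The targeted gene nxf2 was lower in the knockdown than in attp2 (log2 fold change -1.23) and in the mutant than in W1118 (-1.12), but its difference between mutant and heterozygote with Panx FL10B (-0.22) did not pass the test (adjusted p = 0.334). The genotype of those 4 libraries therefore rests on their labels. The ovary label was set beside germline and follicle cell markers: all 6 germline markers and all 6 follicle cell markers had counts in every group. Some follicle cell markers had few, with slbo at 0.410 CPM in the heterozygote with Panx FL10B and cas at 0.409 CPM in the mutant. Fat body and hemocyte markers had counts in several groups too, so the presence of counts alone does not identify the tissue.

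The 10 genes lie on the chromosome arms 3R (bcd, FBgn0000166; orb, FBgn0004882; sqd, FBgn0263396), 2L (grk, FBgn0001137; BicD, FBgn0000183; cup, FBgn0000392), 2R (stau, FBgn0003520; egl, FBgn0000562; exu, FBgn0000615) and X (swa, FBgn0003655) in the Ensembl annotation of BDGP6.54. The counts were made on the older build dm3, so no coordinates are given. For 3 of the genes the annotation shows exons shared with another gene. All 4306 exonic bases of cup are also exonic in CG34310 on the same strand, and CG34310 had between 100.6% and 102% of the cup count in every library. The cup counts therefore cannot be told apart from those of CG34310. grk shares 212 of its exonic bases (12.3%) with Akap200 on the opposite strand, and Akap200 stood at 1171 to 2092 CPM, far above grk. exu shares 397 exonic bases (12.1%) with galla-1, listed as CG30152, on the opposite strand, which stood at 14.9 to 21.9 CPM, below exu in every library. Whether the authors counted by strand is not stated in the sources used here, so the part of antisense reads in the grk and exu counts was not tested.

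Divided by exonic length, sqd ranked highest of the 10 genes in every group, followed by swa and then cup, and grk ranked last. sqd, which encodes the nuclear ribonucleoprotein Squid, stood between 274 and 416 CPM per kb as a group mean. swa, which encodes the bcd mRNA localization factor Swallow, stood between 149 and 246 CPM per kb, and grk between 7.88 and 16.0 CPM per kb. orb and bcd changed their places most, by 4 ranks each between their highest and lowest groups. orb stood at 7 in the knockdown, 8 in attp2, 5 in the mutant, W1118 and the heterozygote with Panx FL10B, and 4 in the mutant with Panx FL10B. bcd stood at 6 in the knockdown, 5 in attp2, 9 in the mutant, W1118 and the heterozygote with Panx FL10B, and 8 in the mutant with Panx FL10B. orb encodes the cytoplasmic polyadenylation element binding protein of the germline, which activates the translation of localized mRNAs.

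**Figure D1:**
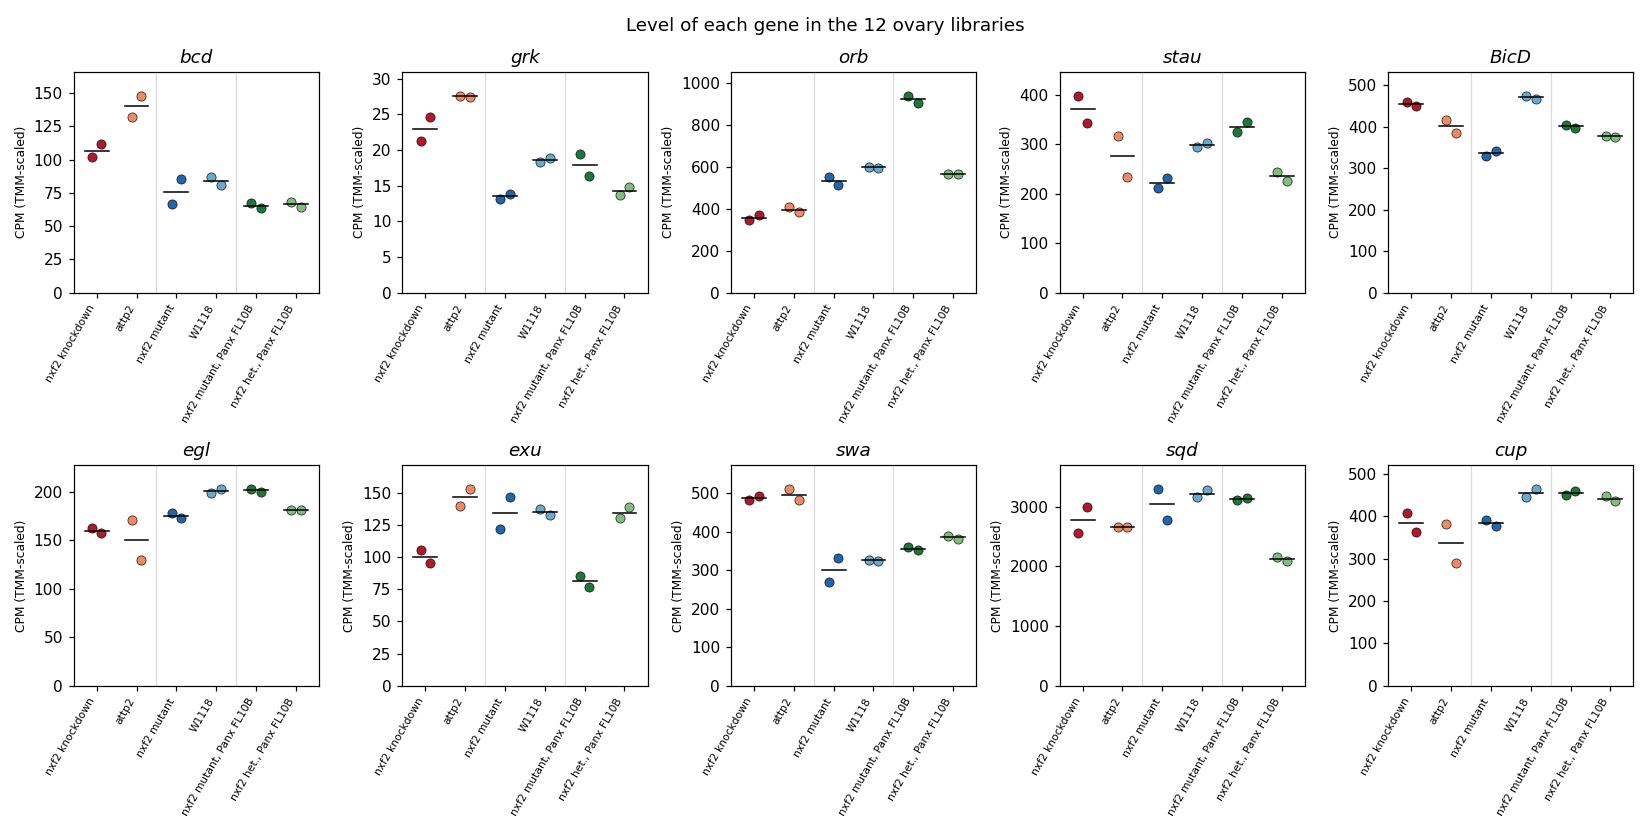
Level of each of the 10 genes (CPM, linear axis from 0) in the 12 libraries, with points for libraries and a bar for the mean of each group of 2. orb was highest in the mutant with Panx FL10B, at 940.0 and 906 CPM, and exu was lowest there, at 85.2 and 77.0 CPM.

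All 10 genes differed among the 6 groups by edgeR's quasi-likelihood test, as did 84.8% of all genes tested, so this count does not set them apart. The ratio of the highest to the lowest group mean was 2.59 for orb, 2.15 for bcd and 2.03 for grk. It was 1.81 for exu, 1.67 for stau, 1.65 for swa and 1.52 for sqd, and between 1.34 and 1.40 for egl, cup and BicD.

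The cargo mRNAs bcd and grk were both highest in attp2, then in the knockdown and then in W1118, with no overlap of libraries between attp2 and the knockdown or between the knockdown and W1118. For bcd, the libraries of W1118 and the mutant overlapped, as did those of the mutant and both Panx FL10B groups. For grk, W1118 overlapped the mutant with Panx FL10B. grk was lowest in the mutant, whose libraries overlapped those of the heterozygote with Panx FL10B. The adaptor genes BicD and egl did not share an order. BicD was highest in W1118, then in the knockdown, and lowest in the mutant, and the libraries of its neighbours overlapped only between attp2 and the mutant with Panx FL10B. egl was highest in the mutant with Panx FL10B and W1118, whose libraries overlapped, and lowest in the knockdown and attp2, whose libraries overlapped too.

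Among the localization factors, stau was highest in the knockdown, whose libraries overlapped those of the mutant with Panx FL10B, and lowest in the mutant. exu was highest in attp2, had nearly equal means of 134 to 135 CPM in W1118, the heterozygote with Panx FL10B and the mutant, was lower in the knockdown and lowest in the mutant with Panx FL10B. swa was highest in attp2 and the knockdown, with overlapping libraries, and lowest in W1118 and the mutant, with overlapping libraries. sqd was lowest in the heterozygote with Panx FL10B, below every other library. Of the translation regulators, orb fell into an order with no overlap between any neighbouring groups: mutant with Panx FL10B, W1118, heterozygote with Panx FL10B, mutant, attp2 and knockdown. cup, which encodes a repressor that binds eIF4E, was highest in the mutant with Panx FL10B, W1118 and the heterozygote with Panx FL10B and lowest in attp2.

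**Figure D2:**
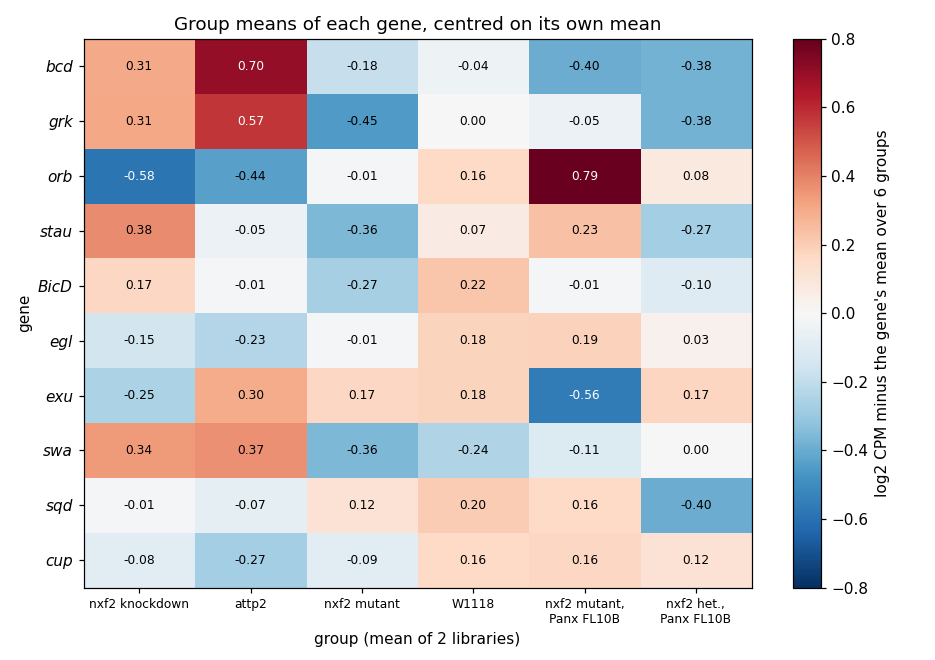
Group means of log2 CPM for each gene, centred on the gene's own mean over the 6 groups, with genes down the side and groups across. The widest spread is that of orb, from -0.58 in the knockdown to 0.79 in the mutant with Panx FL10B, and egl and cup have almost the same profile.

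The knockdown was compared with attp2 to ask how these genes stood when nxf2 was reduced in the germline. exu and bcd were lower in the knockdown and stau was higher, while the other 7 genes did not pass the test. Among all genes tested, 15.7% were called in this comparison, 8% higher and 7.7% lower, against 3 of the 10.

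bcd had 102 and 111 CPM in the knockdown, against 132 and 148 CPM in attp2. Both knockdown libraries lay below both attp2 libraries, a log2 fold change of -0.40 (SE 0.12, edgeR adjusted p = 0.0366). exu, which encodes a protein needed for bcd mRNA to reach the anterior, had 105 and 95.3 CPM in the knockdown, against 140.1 and 153 CPM in attp2. It was 1.46-fold lower in the knockdown (log2 -0.55, SE 0.11, edgeR adjusted p = 0.0055), again with no overlap. stau encodes a double-stranded RNA-binding protein that holds osk mRNA at the posterior and, later, bcd mRNA at the anterior. It had 399 and 343 CPM in the knockdown, against 317 and 235 CPM in attp2, a log2 fold change of 0.43 (SE 0.13, edgeR adjusted p = 0.0381). The groups did not overlap, but the attp2 libraries stood further apart than those of any other group.

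The bcd and stau calls depended on single libraries. bcd did not pass without knockdown replicate 1 (edgeR adjusted p = 0.187), without knockdown replicate 2 (0.0504) or without attp2 replicate 2 (0.117). stau did not pass without knockdown replicate 1 (edgeR adjusted p = 0.251) or without attp2 replicate 2 (0.175). exu passed with each library left out in turn. Without attp2 replicate 1, 6 of the 10 genes passed, with BicD (edgeR adjusted p = 0.0495), egl (0.0179) and cup (0.00566) added, all higher in the knockdown. In that fit the calls over all genes were 2464, against 1356 with all 12 libraries. With the spread estimated from these 4 libraries alone, none of the 3 passed, with edgeR adjusted p = 0.147 for exu, 0.264 for bcd and 0.303 for stau.

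Of the genes that did not pass, grk had 21.3 and 24.7 CPM in the knockdown, against 27.6 and 27.4 CPM in attp2, a log2 difference of -0.26 with a 95% interval from -0.55 to 0.03. The adaptor gene BicD had 458 and 449 CPM in the knockdown, against 415 and 385 CPM in attp2, and its log2 difference of 0.18 (SE 0.08, edgeR adjusted p = 0.163) did not pass although the groups did not overlap. orb was slightly lower in both knockdown libraries, at 344 and 369.7 CPM, than in attp2, at 408 and 382 CPM, with a log2 difference of -0.15 (interval -0.34 to 0.04). The libraries of egl, swa, sqd and cup overlapped between the groups. swa was the closest to equal, with a log2 difference of -0.03 and an interval from -0.24 to 0.18.

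**Figure D3:**
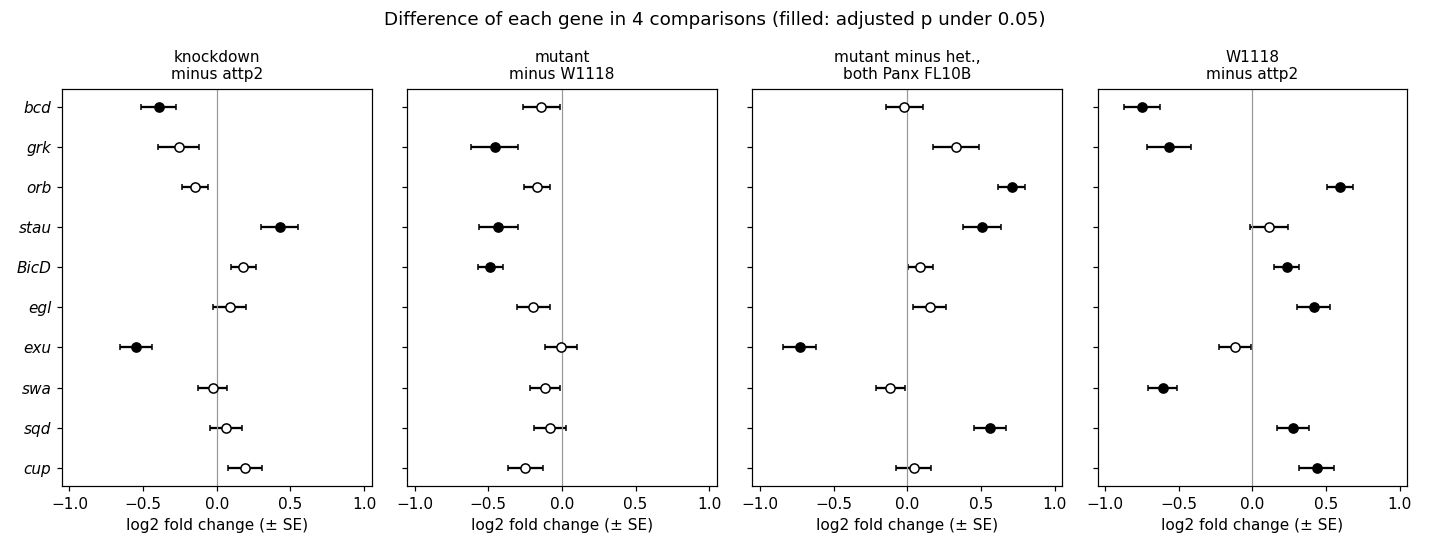
Log2 fold change of each gene, with its standard error, in 4 comparisons, where a positive value means higher in the first group named and filled points passed edgeR's test. stau is at 0.43, -0.43 and 0.51 in the 3 comparisons of nxf2, passing in each, and swa passed only between the wild-type stocks.

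The nxf2 mutant was compared with W1118 to ask the same of flies homozygous for the nxf2 mutation. BicD, stau and grk were lower in the mutant, and none of the 10 genes was higher, by edgeR, by DESeq2, or in edgeR at an unadjusted p under 0.05 (0 of 10 each). The share of all genes at an unadjusted p was not computed. In this comparison 26.8% of all genes tested were called, 15% higher and 11.8% lower, against 3 of the 10. The median log2 fold change of the 10 genes was -0.18, beside 0.04 over all genes tested.

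BicD encodes the Bicaudal-D adaptor that links cargo complexes to dynein. It had 329.6 and 342 CPM in the mutant, against 475 and 467 CPM in W1118. The groups stood well apart, with a 1.40-fold lower level in the mutant (log2 -0.49, SE 0.08, edgeR adjusted p = 0.00124). BicD passed under every alternative run, each library left out included. stau had 212 and 231 CPM in the mutant, against 295 and 303 CPM in W1118, a log2 fold change of -0.43 (SE 0.13, edgeR adjusted p = 0.0253). Its libraries did not overlap, but the call was lost with each library left out: edgeR adjusted p = 0.16 without mutant replicate 1, 0.0574 without mutant replicate 2, 0.0946 without W1118 replicate 1 and 0.147 without W1118 replicate 2.

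grk encodes the ligand that signals from the oocyte to the follicle cells and sets both body axes of the egg. It had 13.2 and 13.9 CPM in the mutant, against 18.3 and 18.8 CPM in W1118, a log2 fold change of -0.46 (SE 0.16, edgeR adjusted p = 0.0451). This is the least abundant of the 10 genes, and the call was lost in DESeq2 (adjusted p = 0.158), in edgeR with upper-quartile scaling (0.053), with no filter (0.0965) and with the replicate number as a block (0.0557), and in every fit that left out a library: 0.169 and 0.0879 without mutant replicates 1 and 2, and 0.131 and 0.221 without W1118 replicates 1 and 2.

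Among the other genes, cup had 390.0 and 376 CPM in the mutant, against 445 and 465 CPM in W1118, and egl, which encodes the RNA-binding partner of Bicaudal-D, had 178 and 173 CPM in the mutant, against 199 and 203 CPM in W1118. Neither pair of groups overlapped, but the log2 differences of -0.25 for cup (edgeR adjusted p = 0.133) and -0.20 for egl (0.219) did not pass. orb, at 550.4 and 511 CPM in the mutant and 600.4 and 596 CPM in W1118, did not pass either (log2 -0.17, interval -0.36 to 0.02). bcd, exu, swa and sqd had overlapping libraries. exu was nearly level, with 122 and 146 CPM in the mutant, against 138 and 133 CPM in W1118, and a log2 difference of -0.01 with an interval from -0.25 to 0.23. The sum of the 6 germline markers was also lower, at 2723 and 2819 CPM in the mutant, against 3606 and 3519 CPM in W1118. osk was the 1 germline marker called, at 894 ± 5.4 CPM in the mutant and 1537 ± 38.5 CPM in W1118 (SD, n = 2 each), and it makes most of that difference. The other germline markers did not pass and did not share a direction. nos averaged 340 ± 20.2 CPM in the mutant and 409 ± 1.83 CPM in W1118. AGO3 averaged 237 ± 13.2 CPM in the mutant and 271 ± 7.89 CPM in W1118. vas averaged 1139 ± 57.4 CPM in the mutant and 1202 ± 26.5 CPM in W1118. aub, at 138 ± 5.84 CPM in the mutant and 127 ± 6.03 CPM in W1118, and bam, at 23.4 ± 4.17 CPM in the mutant and 16.8 ± 0.0839 CPM in W1118, had higher means in the mutant. The part of germline content in the 3 lower genes was not tested.

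The mutant and the heterozygote with Panx FL10B were set side by side to ask how these genes stood without and with a wild-type copy of nxf2 when both groups carry tethered Panx FL10B. orb, sqd and stau were higher in the mutant with Panx FL10B, and exu was lower. Here 19.5% of all genes tested were called, 9.27% higher and 10.2% lower, against 4 of the 10.

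orb had 940.0 and 906 CPM in the mutant with Panx FL10B, against 566 and 565 CPM in the heterozygote with Panx FL10B. This 1.63-fold higher level (log2 0.71, SE 0.09, edgeR adjusted p = 9.66e-05) was far outside the spread of both groups. sqd encodes the nuclear ribonucleoprotein Squid, which grk mRNA needs to reach the dorsal corner and stay silent on the way. It had 3118 and 3149 CPM in the mutant with Panx FL10B, against 2154 and 2095 CPM in the heterozygote with Panx FL10B (log2 0.56, SE 0.11, edgeR adjusted p = 0.00264). The heterozygote libraries were the lowest of all 12 for sqd, which lay at 2560.1 CPM or above in every library outside that group. exu had 85.2 and 77.0 CPM in the mutant with Panx FL10B, against 130.4 and 139 CPM in the heterozygote with Panx FL10B, 1.66-fold lower (log2 -0.73, SE 0.11, edgeR adjusted p = 0.000485). The libraries of this mutant were the lowest of all 12 for exu. The libraries without Panx FL10B differ in stock and may differ in counting, so which group moved was not tested.

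stau had 325 and 345 CPM in the mutant with Panx FL10B, against 245 and 226 CPM in the heterozygote with Panx FL10B (log2 0.51, SE 0.13, edgeR adjusted p = 0.0141). orb, sqd and exu passed under every alternative run, but stau did not pass with any single library left out: edgeR adjusted p = 0.0591 and 0.115 without mutant replicates 1 and 2, and 0.0602 and 0.132 without heterozygote replicates 1 and 2.

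The other 6 genes did not pass. grk had 19.4 and 16.4 CPM in the mutant with Panx FL10B, against 13.6 and 14.9 CPM in the heterozygote with Panx FL10B, with a log2 difference of 0.33 (SE 0.16, edgeR adjusted p = 0.158). bcd, the other cargo, was close to equal, with 67.1 and 63.6 CPM in the mutant and 68.1 and 64.5 CPM in the heterozygote, and a log2 difference of -0.02 (interval -0.29 to 0.25). BicD, egl and cup had small differences without overlap, of 0.09, 0.15 and 0.04 on the log2 scale. swa was lower in both mutant libraries, at 359.7 and 352 CPM, than in the heterozygote, at 388 and 382 CPM, but by a log2 difference of only -0.11 (interval -0.33 to 0.10).

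Markers of late follicle cells moved strongly with this comparison. The 9 chorion genes summed to 494 and 330.2 CPM in the mutant with Panx FL10B, against 17130 and 17494 CPM in the heterozygote with Panx FL10B, a 42.0-fold lower sum. The 7 vitelline membrane genes, made by mid-stage follicle cells, summed to 3466 and 3669 CPM in the mutant and 7815 and 7671 CPM in the heterozygote. The 6 germline markers summed to 3098 and 3140.4 CPM in the mutant, against 2608 and 2436 CPM in the heterozygote. They did not move together: osk (log2 0.65) and aub (0.53) were called higher in the mutant and nos (-0.70) lower. osk alone averaged 1670 ± 62.8 CPM in the mutant and 1066 ± 45.9 CPM in the heterozygote (SD, n = 2 each), about the whole difference of the sums. The 8 sheath muscle markers summed to 379 and 385 CPM in the mutant, against 186 and 194 CPM in the heterozygote. The part of egg chamber stages and cell types in the orb, sqd, stau and exu differences was not tested. The 6 fat body markers summed to 20.1 and 22.0 CPM in the mutant with Panx FL10B, against 4.35 and 5.45 CPM in the heterozygote with Panx FL10B, with 4 called higher and 0 lower, and the 5 hemocyte markers to 21.5 and 24.5 CPM in the mutant, against 11.4 and 8.98 CPM in the heterozygote, with Hml (log2 1.25) called higher. Over all 12 libraries these sums reached at most 33.2 CPM for fat body, in a library of the mutant without Panx FL10B, and 24.5 CPM for hemocytes. The other library of that mutant had a fat body sum of 3.38 CPM, and the W1118 libraries had 0.257 and 0.306 CPM. Between that mutant and W1118, Lsp2, Lsp1gamma, Hml (log2 1.79) and the sheath muscle gene Mlc2 (1.07) were called higher. No marker of these 3 lists was called lower there. Lsp1alpha had no count in attp2, Fbp2 none in the mutant without Panx FL10B, and Fbp1, Fbp2, Lsp1alpha, Lsp1gamma and the hemocyte gene eater none in W1118.

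**Figure D4:**
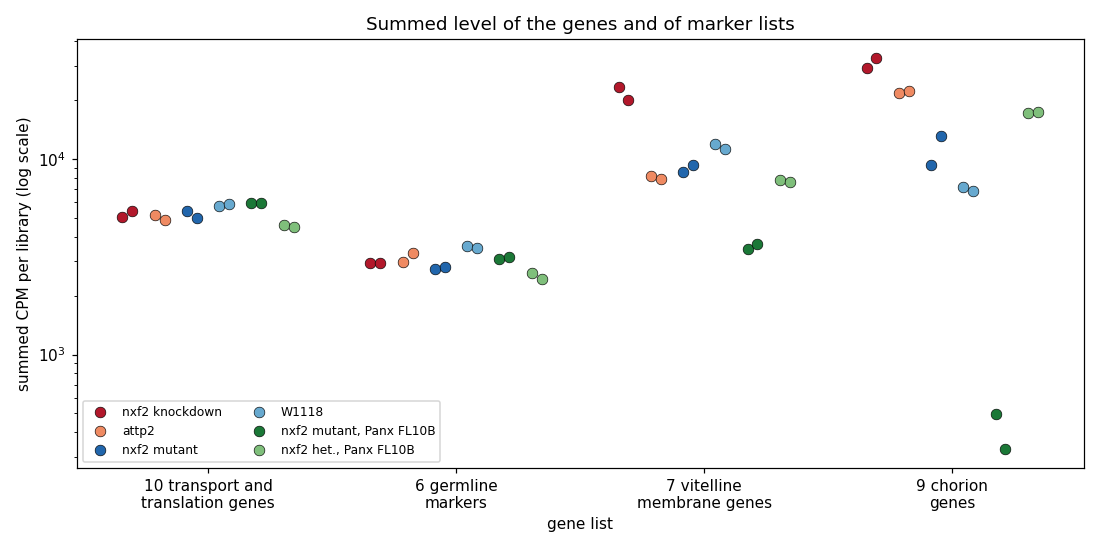
Summed CPM per library (log scale) of the 10 genes and of 3 marker lists, with 1 point per library coloured by group. The 10 genes together range from 4477 to 5973 CPM, the chorion genes from 330.2 to 32748 CPM.

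In the knockdown comparison both eggshell sums were higher in the knockdown. The vitelline membrane genes summed to 23465 and 20144 CPM in the knockdown, against 8157 and 7949 CPM in attp2, and the chorion genes to 29241 and 32748 CPM in the knockdown, against 21855 and 22212 CPM in attp2. The germline markers were at 2954 and 2933 CPM in the knockdown and 2964 and 3290 CPM in attp2. Between the mutant and W1118, the chorion sum was 9305 and 13146 CPM in the mutant, against 7181 and 6880 CPM in W1118, and the vitelline membrane sum 8582 and 9374 CPM in the mutant, against 11989 and 11284 CPM in W1118. These 2 lists did not move as blocks there. Cp38, Cp7Fa and Cp36 were called higher, while Cp18 averaged 270 ± 136 CPM in the mutant and 402 ± 8.46 CPM in W1118. Vm32E (log2 0.33) was called higher, and dec-1 (-0.55), psd (-0.47) and Vm26Ab (-0.72) lower. The part of these markers in the differences of the 10 genes was not tested.

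The differences between mutant and control, in each setting, were themselves compared. The mutant-minus-W1118 difference was set against the knockdown-minus-attp2 difference by an interaction contrast, which 27% of all genes passed, 14.5% higher and 12.5% lower. stau, BicD and exu passed, 3 of the 10: stau and BicD had lower values in the mutant setting, and exu a higher one. The Panx FL10B difference was set against the mutant-minus-W1118 difference by the same kind of contrast, which 21.2% of all genes passed, 9.26% higher and 12% lower. Here 6 of the 10 passed, with orb, stau, grk, sqd and BicD higher in the Panx FL10B setting and exu lower. nxf2 also had a higher value in the Panx FL10B setting (log2 0.90, edgeR adjusted p = 0.00775). It did not pass the first contrast (log2 0.11, edgeR adjusted p = 0.729). With single libraries left out, exu in the first contrast reached an edgeR adjusted p of 0.0909, and grk and sqd in the second 0.107 and 0.0507. Without attp2 replicate 1, egl (0.00294) and cup (0.000762) also passed the first contrast, both with lower values in the mutant setting. Both contrasts use the mutant and W1118 libraries, so they are not independent of each other. The settings also differ in stock and, for the knockdown, in the cells in which nxf2 was reduced, and these cannot be told apart from the means of reducing nxf2.

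The wild-type stocks W1118 and attp2 differed in most of these genes, and these libraries are also the controls of the knockdown and mutant comparisons. In W1118, orb, egl, cup, BicD and sqd were higher and bcd, swa and grk lower than in attp2, 8 of the 10. Over all genes tested 55.5% were called, 25.2% higher and 30.3% lower. stau (log2 0.11) and exu (-0.12) did not pass. The targeted gene nxf2 itself was higher in W1118 than in attp2 (log2 0.70, SE 0.14, edgeR adjusted p = 0.000827). Marker sums moved with the stocks: the chorion genes were at 7181 and 6880 CPM in W1118, against 21855 and 22212 CPM in attp2, and the vitelline membrane genes at 11989 and 11284 CPM in W1118, against 8157 and 7949 CPM in attp2. The 6 follicle cell markers summed to 407 and 410.3 CPM in W1118 and 274 and 287 CPM in attp2. The lists did not move as blocks. Cp7Fc (log2 1.72) and Cp7Fb (0.65) were called higher in W1118 and the other chorion genes lower. Of the follicle cell markers, tj (0.72) and Fas3 (0.49) were called higher and cas (-2.51) lower. Of the germline markers, AGO3 (1.30), osk (0.44) and vas (0.26) were called higher and nos (-0.81) and bam (-0.85) lower. The part of these markers in the differences of the 10 genes was not tested. The cargo mRNA bcd averaged 83.7 ± 4.25 CPM in W1118 and 140.3 ± 11.3 CPM in attp2 (SD, n = 2 each), a log2 fold change of -0.75 (SE 0.12, edgeR adjusted p = 0.000156). swa, at 325 ± 2.25 CPM in W1118 and 497 ± 21.5 CPM in attp2, was 1.53-fold lower in W1118 (log2 -0.61, SE 0.10, edgeR adjusted p = 0.000173). In the comparisons of nxf2 its log2 differences had been -0.03, -0.12 and -0.11, none past the test. grk averaged 18.6 ± 0.4 CPM in W1118 and 27.5 ± 0.188 CPM in attp2.

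The translation regulator orb averaged 598 ± 3.4 CPM in W1118 and 395 ± 18.8 CPM in attp2, a log2 fold change of 0.60 (SE 0.09, edgeR adjusted p = 7.69e-05). egl and cup were higher in W1118 by log2 0.42 and 0.44. BicD and sqd were higher by log2 0.23 and 0.27, but their edgeR adjusted p of 0.0301 and 0.0453 were lost with single libraries left out. BicD did not pass without attp2 replicate 2 (0.0867), W1118 replicate 1 (0.133) or W1118 replicate 2 (0.11), and sqd not without attp2 replicate 1 (0.0723) or 2 (0.0711) or W1118 replicate 1 (0.105) or 2 (0.201). The cup call was lost without W1118 replicate 2 (0.0538), which left 5 of the 10 genes and 3464 of all genes called, against 8 and 4791 with all 12 libraries. stau was added without attp2 replicate 1 (0.0135). With the replicate number as a block sqd also did not pass (0.0503).

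The choice of control stock therefore decided the direction of several genes. Set against W1118 in place of attp2, the knockdown was higher in bcd (log2 0.35) and swa (0.58) and lower in egl (-0.33), each past the test. orb was lower too (log2 -0.74, edgeR adjusted p = 1.38e-05), where its difference of -0.15 from attp2 had not passed. stau no longer passed (edgeR adjusted p = 0.0564). Set against attp2 in place of W1118, the mutant was higher in orb (log2 0.43), where it had been lower by 0.17 without passing. bcd (log2 -0.89, edgeR adjusted p = 2.99e-05) and swa (-0.72, 3.7e-05) were lower in the mutant and newly passed. Which stock shares more of its background with the knockdown or the mutant was not tested.

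The rest of the transport and translation machinery was read from 4 lists chosen with earlier results of these data known. Their counts of calls stand beside the shares over all genes tested. For counts at an unadjusted p, the share over all genes was not computed. These were 8% higher and 7.7% lower in the knockdown comparison, and 15% higher and 11.8% lower in the mutant comparison. With Panx FL10B they were 9.27% higher and 10.2% lower. Of 17 motor and cytoskeleton genes, the knockdown had 2 higher and 1 lower than attp2. The higher ones were spir (log2 0.64), an actin nucleator of the oocyte, and didum (0.43), the myosin V gene, and the lower one was robl (-0.56), a dynein light chain gene. In the mutant against W1118, 1 was higher and 4 were lower, among them the dynein heavy chain gene Dhc64C (-0.88), the microtubule-actin linker gene shot (-0.61) and didum (-0.57). With Panx FL10B, 4 were higher and none lower in the mutant than in the heterozygote, with the dynein light and intermediate chain genes ctp (0.44) and sw (0.43) and spir (0.42) among the higher. DESeq2 also called none lower, and 2 were lower in edgeR at an unadjusted p under 0.05. The list medians were 0.10, -0.09 and 0.05 on the log2 scale, beside -0.03, 0.04 and -0.01 over all genes.

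Of 16 further RNA-binding and localization genes, 2 were higher and none lower in the knockdown than in attp2: otu (log2 0.55), which acts in germline differentiation, and btz (0.50), an exon junction complex gene needed for osk mRNA localization. In the mutant against W1118, mago (0.61), another exon junction complex gene, was higher, and fs(1)K10 (-0.41), needed for grk mRNA localization, and otu (-0.39) were lower. In the mutant against the heterozygote with Panx FL10B, 4 were higher and none lower, among them Imp (0.83), CG17838 (0.76), whose current name is Syp, and Hrb27C (0.55), which encodes a partner of Squid on grk mRNA. In both comparisons with none lower, DESeq2 called 0 lower as well, and 1 gene was lower in edgeR at an unadjusted p under 0.05. The medians of this list were 0.10, -0.02 and 0.03.

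Of 20 translation control genes, 4 were higher and none lower in the knockdown than in attp2, among them orb2 (log2 0.76), a paralog of orb, and the repressor genes smg (0.55) and brat (0.53). DESeq2 called 0 lower too, and 1 was lower in edgeR at an unadjusted p under 0.05. In the mutant against W1118, 3 were higher and 5 lower, with the repressor gene BicC at -0.50, the Y-box gene yps at 0.33 and gnu, a subunit of the kinase that acts at egg activation, at 0.42. With Panx FL10B, 7 were higher and 3 lower in the mutant than in the heterozygote, with the initiation factor gene eIF4G (0.66), the repressor gene pum (0.60) and the poly(A)-binding protein gene pAbp (0.50) among the higher. The medians were 0.14, -0.07 and 0.19.

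For the Gurken signal, 9 genes that act in its export, its reception and the response to it were read. None passed in the knockdown against attp2 by edgeR or DESeq2, with a median of 0.40 on the log2 scale. In edgeR at an unadjusted p under 0.05, 4 were higher and 0 lower. The share of all genes at that threshold was not computed, so this count cannot be set against it. In the mutant against W1118, aos (log2 -1.02), a secreted inhibitor of signalling through the receptor, was lower. cni (0.75), needed for Gurken to reach the cell surface, was higher. With Panx FL10B, 1 gene passed between mutant and heterozygote: kek1 (1.54), an inhibitor and target of the receptor, was higher in the mutant.

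Of the 17 motor genes, 6 were higher and 4 lower in W1118 than in attp2, and of the 16 RNA-binding genes 5 and 4. Of the 20 translation genes, 10 were higher and 5 lower, and of the 9 Gurken signal genes 3 and 1. Over all genes tested, 25.2% were called higher and 30.3% lower in this comparison. Among the furthest apart were Klc (log2 -1.35), the kinesin light chain gene, Hrb27C (1.40), yps (-1.40) and cni (-1.58).

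Likeness to each gene was measured as the root mean square difference between centred log2 group means, over the 6 groups and 6585 genes with a mean of at least 10 CPM. Apart from CG34310, which shares the exons of cup, the closest gene was Brca2 for egl (0.033), Lpin for swa (0.034), DLP for BicD (0.036) and slpr for stau (0.043). It was CG10462 for orb (0.051), CG7857 for bcd (0.058), del for sqd (0.062), Pole2 for exu (0.072) and beta4GalNAcTA for grk (0.082), and Ssrp came second for cup (0.040). Among the 10 genes themselves, egl and cup had the closest profiles (0.057), followed by stau and BicD (0.17) and by the cargo genes bcd and grk (0.19). These values are a description of 6 group means and carry no test.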

How the data were processed

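RNA-seq libraries of ovary RNA, 12 in all and 2 in each of 6 groups, were read from 1 table of raw counts of reads per gene, deposited by the authors without normalization. Per the labels' protocols, RNA was purified with Trizol and reverse transcribed with not-so-random primers. For all 12 libraries the submitters' processing notes name STAR 2.5.2a, cutadapt 1.16, bcl2fastq 1.8.4 and dm3, and for the 8 without Panx FL10B also featureCounts 1.6.1 and deepTools 2.5.7. The counting tool of the other libraries, the gene annotation and the use of strand are not stated in the sources used here, so a difference in counting cannot be told apart from one between those sets.

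The tests were made in R 4.3.3 by edgeR 4.0.16 on these counts: filterByExpr, TMM scaling and robust quasi-likelihood tests in 1 model of 6 groups with 6 residual degrees of freedom. P-values were adjusted by Benjamini-Hochberg over the 8638 genes tested and called under 0.05. The groups share 1 estimate of the spread. CPM were computed from the counts with TMM factors, and 95% intervals of log2 differences use the same fit, unadjusted. The depth puts 3 counts at 0.275 to 0.772 CPM per library. CPM per kb use exon lengths of BDGP6.54. The edgeR test was checked on simulated data. Alternatives were DESeq2 1.42.0, other scalings, no filter, a replicate block, each library left out, only the 4 libraries compared, and the other control stock. No pairing by replicate number was seen: over 15 pairs of groups, the correlation of same-numbered deviations lay between -0.112 and 0.0944. These correlations cannot show whether same-numbered libraries were prepared together. All 10 genes and nxf2 are named in each of the 4 comparisons, and in the interaction contrasts those that passed. Up to 3 called genes of smallest p from each further list are named too and, for likeness, the closest genes. The genes and lists were chosen with earlier results of these data known. No column was left unused.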

Additional observations from a re-analysis of the deposited data

Results flagged for a closer look

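In these 10 genes, 9 differences between groups in the size or direction of the nxf2 difference passed an interaction test in edgeR's quasi-likelihood model, with p adjusted over all genes. They are 3 of the 10 genes in the first contrast, which 27% of all genes passed, and 6 of the 10 in the second, which 21.2% passed. Between the mutant setting (mutant minus W1118) and the knockdown setting (knockdown minus attp2), the log2 difference of effects was -0.86 for stau (adjusted p = 0.00433), -0.67 for BicD (0.00175) and 0.54 for exu (0.0205). stau was lower in the mutant than in W1118 (log2 -0.43) and higher in the knockdown than in attp2 (0.43). The exu contrast did not pass without knockdown replicate 2 (0.0616), mutant replicate 2 (0.0849), W1118 replicate 1 (0.0592) or W1118 replicate 2 (0.0909).

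Between the Panx FL10B setting (mutant minus heterozygote) and the mutant setting, it was 0.94 for stau (adjusted p = 0.00289), 0.88 for orb (0.000296) and 0.79 for grk (0.0211). It was 0.64 for sqd (0.00908), 0.58 for BicD (0.00412) and -0.72 for exu (0.00543). The grk contrast did not pass in DESeq2 (0.0758), nor in edgeR without mutant replicate 1 (0.0569), W1118 replicate 1 (0.0574) or 2 (0.0909), replicate 1 of the mutant with Panx FL10B (0.107), or replicate 1 (0.0797) or 2 (0.0553) of the heterozygote with Panx FL10B. The sqd contrast did not pass without W1118 replicate 2 (0.0507). In the mutant setting alone, orb (-0.17), sqd (-0.08) and exu (-0.01) had not passed. Stock, chorion levels and the means of reducing nxf2 move with these settings, and their part was not tested.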

How the results depend on the processing

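Of 850 values recomputed for the 10 genes, 750 kept their side of the threshold and, where the test has a direction, their direction. Of the rest, 50 no longer passed, 14 newly passed and 36 changed sign. The 850 include the test for any difference among the 6 groups, which has no direction. All 10 genes passed that test each time it was rerun, so its values raise the count of those kept. With only the 4 libraries compared, the knockdown comparison called 0 of the 10 genes in edgeR and 188 genes in all (against 1356). In that fit 2 of the 10 had an unadjusted p under 0.05, a threshold at which the share over all genes was not computed. DESeq2 on all 12 libraries called 3. The mutant comparison called 5 of the 10 and 3033 genes in all (against 2318). The Panx FL10B comparison called 5 of the 10 and 3690 genes in all (against 1686). W1118 against attp2 called 5 of the 10 and 4004 genes in all (against 4791). With W1118 as the control of the knockdown, 5 of the 10 genes and 4485 genes in all were called; log2 was 0.35 for bcd, 0.31 for grk, -0.055 for BicD, -0.33 for egl, 0.58 for swa, -0.21 for sqd and -0.24 for cup. With attp2 as the control of the mutant, 6 of the 10 and 4849 genes in all were called, and log2 was 0.43 for orb, 0.22 for egl, 0.19 for sqd and 0.19 for cup. With each library left out in turn, the calls ranged from 1 to 6 of the 10 and 546 to 2464 genes in the knockdown comparison, 1 to 1 and 821 to 1707 in the mutant comparison, 3 to 3 and 721 to 802 in the Panx FL10B comparison, and 5 to 8 and 3464 to 4851 between W1118 and attp2. For the interaction contrasts, calls over all genes were not recounted with a library left out, so no range is given for the 10 genes.

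None of the genes whose sign changed with a library left out had passed the test. Their log2 ranges were, for the knockdown against attp2, -0.062 to 0.17 for sqd, -0.071 to 0.017 for swa and -0.096 to 0.30 for egl. For the mutant against W1118 they were -0.33 to 0.030 for bcd, -0.15 to 0.12 for exu, -0.27 to 0.025 for swa and -0.21 to 0.033 for sqd. For bcd they were -0.059 to 0.027 in the Panx FL10B comparison, and for stau -0.087 to 0.35 between W1118 and attp2. For the mutant against the knockdown setting they were -0.081 to 0.025 for orb, -0.24 to 0.050 for swa and -0.13 to 0.31 for nxf2, and for the Panx FL10B against the mutant setting -0.049 to 0.31 for bcd and -0.14 to 0.15 for swa. Upper-quartile scaling gave 0.0062 for exu in the mutant, 0.0070 for bcd with Panx FL10B and 0.027 for orb in the mutant against the knockdown setting. Without a filter, orb was 0.016 there and swa -0.0015 in the Panx FL10B against the mutant setting. The cause of these changes was not tested.

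The replicate block ended 2 calls in edgeR, grk in the mutant against W1118 (adjusted p = 0.0557) and sqd in W1118 against attp2 (0.0503). It changed no other call of the 10 genes. Whether same-numbered libraries were prepared together cannot be told from these data.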
